A study of Arabidopsis thaliana with 16 samples.

Results

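Transposase hypersensitive sites (THSs) are short stretches of open chromatin, and 1197 of the 65351 THSs found along the Arabidopsis stomatal lineage (1.83%) held a long run of the dinucleotide GA. A THS was counted as a member where its TAIR10 reference sequence carried at least 6 GA units in tandem on either strand. The longest run had 6 to 9 units in 1037 members, 10 to 19 units in 137 and 20 or more units in 23. The median was 7 units and the longest run had 96. A single run was present in 1147 members, and 50 had more than 1, with at most 4. Membership was decided by the sequence alone and by no measured value. The study had, however, already reported the GA repeat as the most enriched motif in sites open early in the lineage. The rule was set with that result known.

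Tandem GA repeats are common near the transcription start sites of plant genes, often in the 5′ untranslated region (UTR). They are recognised by the plant-specific BASIC PENTACYSTEINE (BPC) family of DNA-binding proteins, which can bring Polycomb repressive complex 2 (PRC2), the writer of a repressive histone mark, to their targets. The same stretch reads as GA on one strand and as TC on the other.

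Accessibility was measured with ATAC-seq, in which a transposase cuts DNA it can reach, on nuclei isolated by INTACT, a method in which 1 cell type puts a biotin tag on its nuclei so that they can be captured from a whole plant. All plants were 3-day-old Col-0 seedlings grown in continuous light, and every line carried ACT2pro:BirA, which adds the biotin, together with the nuclear tag. The tag was driven by the promoter of AtML1 in protoderm (Proto, 3 libraries), SPCH in meristemoid mother cells (MMC, 3 libraries), MUTE in meristemoids (M, 4 libraries), FAMA in guard mother cells (GMC, 3 libraries) and GC1 in mature guard cells (GC, 3 libraries), so each group is the set of cells in which that promoter was active, and the AtML1 promoter stays weakly active in the stomatal lineage. The values are scaled cutcounts, which are transposase cuts on a THS divided by a size factor of the library. In bulk nuclei of this kind, fewer cells with an open site and less opening per cell cannot be told apart.

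The spread of the signal differed between libraries, and it moved with the states. The upper quartile of scaled cutcounts over all THSs was 2.79 to 3.27 times the lower quartile in Proto libraries, 3.12 to 5.79 times in those from MMC and 2.38 to 5.52 times in those from M. The ratio was 2.5 to 2.51 for GMC and 2.5 to 2.91 for GC. MMC replicate 3 and M replicate 4 stood apart with ratios of 5.79 and 5.52, and M replicate 1, at 2.38, lay below every GMC library. A higher ratio means that strong sites stand further above weak ones in that library.

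The sequences below show the kinds of repeat that the results turn on. They are given 5′ to 3′ on the strand of the nearest gene, from the NCBI copy of TAIR10, with the longest run in capitals and its neighbouring bases in lower case. The first 3 are long runs outside annotated genes, among the 5 longest of the set.

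THS_19073, chr2:6002268-6002469, plus strand: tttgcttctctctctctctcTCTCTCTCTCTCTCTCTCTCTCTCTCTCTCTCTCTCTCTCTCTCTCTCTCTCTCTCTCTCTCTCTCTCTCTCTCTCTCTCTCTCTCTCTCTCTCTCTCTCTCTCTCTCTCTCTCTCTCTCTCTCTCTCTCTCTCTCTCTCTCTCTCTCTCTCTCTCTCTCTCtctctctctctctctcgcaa
THS_41525, chr4:5360866-5361027, plus strand: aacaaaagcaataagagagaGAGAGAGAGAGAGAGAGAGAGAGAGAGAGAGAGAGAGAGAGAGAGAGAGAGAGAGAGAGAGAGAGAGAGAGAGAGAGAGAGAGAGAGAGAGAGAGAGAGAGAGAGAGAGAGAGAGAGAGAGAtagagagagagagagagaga
THS_27674, chr2:19100431-19100560, minus strand: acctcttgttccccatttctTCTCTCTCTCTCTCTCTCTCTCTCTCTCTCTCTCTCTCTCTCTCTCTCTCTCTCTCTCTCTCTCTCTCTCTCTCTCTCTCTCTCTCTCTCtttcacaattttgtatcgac

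In THS_19073 the run filled 99.4% of the 163 bp THS and went on past both edges, to 96 units (192 bp) in the genome. In THS_41525 it filled 56.5% of 216 bp, with 64 units in the genome, and in THS_27674 16.4% of 550 bp. THS_23375 had the longest run within a THS, with 96 units covering 45.7% of its 420 bp, and THS_19969 had 54 units in 1158 bp. The run covered at least 50% of the THS in only 2 of the 1197 members, and its median share of the THS was 4.58%. How the authors treated reads that map equally well to several places is not given in the sources used here, and its effect on the THSs with the longest runs was not tested.

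Short runs are shown next, first 3 between genes that were more open in MMC and M than in GMC and GC, then 4 that were less open there.

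THS_35219, chr3:10938287-10938340, minus strand: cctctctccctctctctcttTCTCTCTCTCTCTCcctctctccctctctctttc
THS_19967, chr2:8016713-8016764, plus strand: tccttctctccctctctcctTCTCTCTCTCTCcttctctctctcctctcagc
THS_06487, chr1:9708225-9708278, plus strand: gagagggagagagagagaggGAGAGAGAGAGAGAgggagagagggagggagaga
THS_19444, chr2:7114375-7114426, minus strand: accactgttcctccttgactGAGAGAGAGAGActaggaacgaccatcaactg
THS_60685, SWEET10, chr5:20658066-20658123, minus strand: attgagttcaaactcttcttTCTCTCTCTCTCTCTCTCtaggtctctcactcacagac
THS_61779, GPT1, chr5:22262091-22262142, plus strand: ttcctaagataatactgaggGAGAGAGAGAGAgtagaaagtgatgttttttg
THS_64663, AT5G65590 (SCAP1), chr5:26213737-26213788, minus strand: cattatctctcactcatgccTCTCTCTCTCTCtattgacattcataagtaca

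The first 3 sat in wider stretches of imperfect GA or TC repeat, whereas the last 4 did not. THS_60685 and THS_64663 had a short further TC stretch beside the run. These are examples only, since THS_24639, also between genes and more open in MMC and M, had a run without a wider repeat around it. The third set shows runs in the 5′ UTRs of genes with known roles in stomata, in the BPC family, in PRC2 or as targets of BPC proteins, in 30 bases each.

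THS_61260, SPCH, chr5:21588953-21588982, minus strand: aacgaggaaGAGAGAGAGAGAaggatatat
THS_34596, ICE1 (SCRM), chr3:9835172-9835201, minus strand: gtgacggtGAGAGAGAGAGAGAtacggtaa
THS_12673, YDA, chr1:23630007-23630036, minus strand: ctctcttTCTCTCTCTCTCTCTCtatctcc
THS_01093, HDG2, chr1:1518826-1518855, minus strand: tgtaacataTCTCTCTCTCTCtatatatat
THS_20624, BPC4, chr2:9103024-9103053, minus strand: agacactaTCTCTCTCTCTCTCtacccttt
THS_41063, SWN, chr4:886630-886659, plus strand: gaaaaagcaGAGAGAGAGAGAaagttcgag
THS_41469, KNAT1, chr4:5150623-5150652, minus strand: ttttatatTCTCTCTCTCTCTCaaatcttt
THS_41470, KNAT1, chr4:5151022-5151051, minus strand: ttgttaaTCTCTCTCTCTCTCTCtttctct

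The members lay at gene starts. The nearest gene start fell inside the THS in 827 members (69.1%, 95% Wilson interval 66.4 to 71.6%), against 23.9% of the other 64154 THSs. A further 31 members lay up to 400 bp upstream of the start (2.59%, against 8.85% of the others), 89 lay further upstream, up to 2000 bp (7.44% against 26.4%), 187 lay up to 2000 bp downstream (15.6% against 25.5%) and 63 were over 2000 bp away (5.26% against 15.3%). The members belonged to 1177 different nearest genes, and only 40 members shared their nearest gene with another member. With 23 THSs the longest runs gave a less precise figure, but 15 of them (65.2%, interval 44.9 to 81.2%) also held a gene start.

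The run itself lay mostly in annotated 5′ UTRs, judged by its centre. Its centre lay in an annotated 5′ UTR in 842 members (70.3%), between genes in 221 (18.5%), in a 3′ UTR in 42, in an intron in 36, in an exon of a non-coding gene in 29 and in a coding exon in 27. Of the 23 members with 20 or more units, 11 had the centre of the run in a 5′ UTR and 11 between genes (47.8% each). The centre lay within the first 100 bp downstream of the start in 400 members (33.4%) and from there to 200 bp in 291 (24.3%), but in the 100 bp upstream of the start in only 68 (5.68%).

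**Figure D1:**
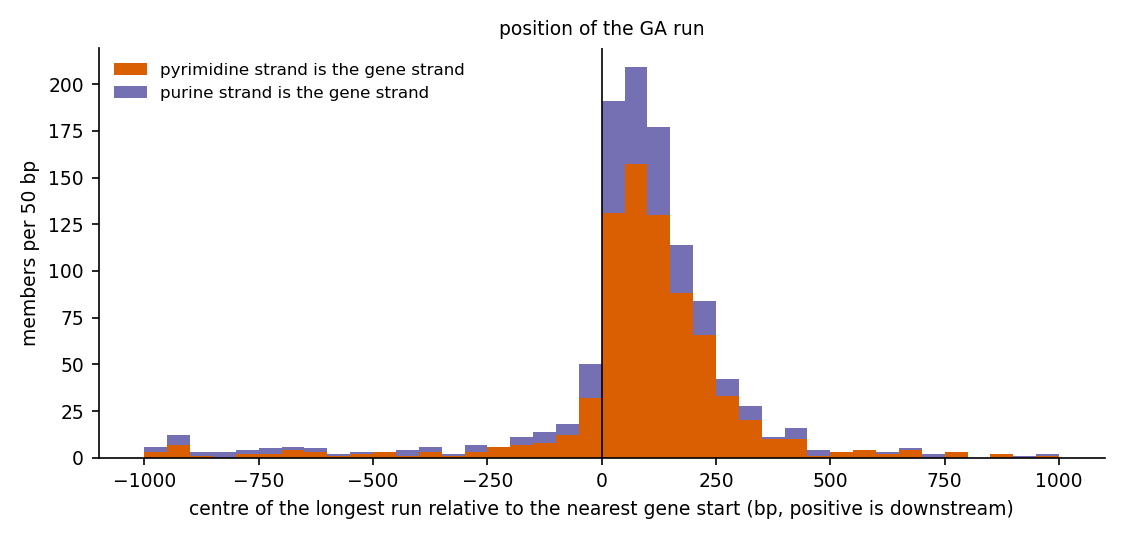
Histogram of the distance from the nearest gene start to the centre of the longest run, in bins of 50 bp, for members within 1000 bp of a start, with downstream distances positive. Colours show whether the run reads as TC (pyrimidine) or GA (purine) on the strand of the nearest gene. The peak lies just downstream of the start, with the pyrimidine strand as the gene strand in most members.

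The runs had a preferred strand. On the strand of the nearest gene the run read as TC in 825 members and as GA in 372. In 5′ UTRs it read as TC in 619 of 842 members (73.5%, interval 70.4 to 76.4%), between genes in 124 of 221 (56.1%, 49.5 to 62.5%) and in members over 2000 bp from a start in 27 of 64 by the position of the run (42.2%, 30.9 to 54.4%). The share was 64.7% in the 100 bp upstream of the start, 72.0% in the first 100 bp downstream, 74.9% from there to 200 bp and 78.2% from 200 to 400 bp. The strand had little relation to the change between states described below, since the median log2 fold change between MMC and M and GMC and GC was 0.39 with TC and 0.38 with GA on the gene strand.

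The members were long and open THSs. Their median length was 310 bp against 230 bp for all THSs, and their median level, as the mean over the 16 libraries, was 113 scaled cutcounts against 53.9. Per 100 bp of THS the median level was 35.5 against 24.8 scaled cutcounts. Below 6 units the median level per 100 bp went up with the run, from 23.5 with 0 to 2 units to 28.5, 30.8 and 33.5 with 3, 4 and 5, but within the members it did not, at 36.1 for 6 to 9 units, 31.9 for 10 to 19 and 34.1 for 20 or more. The members' median GC content was 36.5% against 34.7% for all. No member was at 0 in any library, and 1178 members (98.4%) had at least 10 scaled cutcounts in every library, against 88.0% of all THSs. No filter on low values was used in the main fit, so all 1197 members entered it, while an alternative with at least 10 in every library tested 1178.

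Other DNA words were set against the length of the THS. The E-box CACGTG, which reads the same on both strands and is bound by bHLH proteins such as those that set stomatal fate, was present in 148 members (12.4%, interval 10.6 to 14.4%) and in 8.91% of all THSs. In all THSs weighted to the members' distribution over quintiles of length, the share was 12.7%. The looser word CANNTG was present in 62.3% of members (interval 59.5 to 65.0%) against 70.7% of all THSs weighted in this way, so it was less frequent in members. The quintiles match length only roughly, since the top one spans 345 to 3802 bp. A match is only a match of letters.

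In every library the members were more open than the whole set of THSs, and by the state means the gap was widest in MMC and M. The median member had 103, 108 and 111 scaled cutcounts in the 3 Proto libraries. The MMC libraries gave 119, 108 and 154, and the M libraries 93.1, 128, 131 and 161. The medians of the GMC libraries were 88.6, 99.3 and 93.7, and those of the GC libraries 99.3, 95.9 and 105. Over all THSs the medians lay between 49.8 and 57.2. The highest member medians were those of M replicate 4 and MMC replicate 3, the libraries with the widest spread of signal. M replicate 1 was as low as the GMC libraries, so M overlapped GMC and GC. MMC replicate 2 lay within the range of the Proto libraries and M replicate 1 below it, so both states overlapped Proto too.

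On the log2 scale, the members' median stood above that of all THSs by 1.01 ± 0.07 in Proto nuclei (SD, n = 3), by 1.26 ± 0.31 in those of MMC (n = 3) and by 1.27 ± 0.38 in those of M (n = 4). It stood above by 0.73 ± 0.09 in GMC nuclei (n = 3) and by 0.83 ± 0.11 in GC nuclei (n = 3). For the 23 members with 20 or more units the gap was 1.16 ± 0.22 in Proto nuclei, then 1.88 ± 0.15 and 1.74 ± 0.39 in MMC and M, and 1.02 ± 0.23 and 1.26 ± 0.04 in GMC and GC. Here the MMC libraries, at 1.79 to 2.05, lay above all Proto libraries, at 0.94 to 1.38, and above all GMC and GC libraries, at 0.77 to 1.31. When each member was set against THSs of the same mean level, the mean gaps were -0.05 in Proto nuclei, then 0.04 and 0.07 in MMC and M, and -0.07 and -0.06 in GMC and GC.

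**Figure D2:**
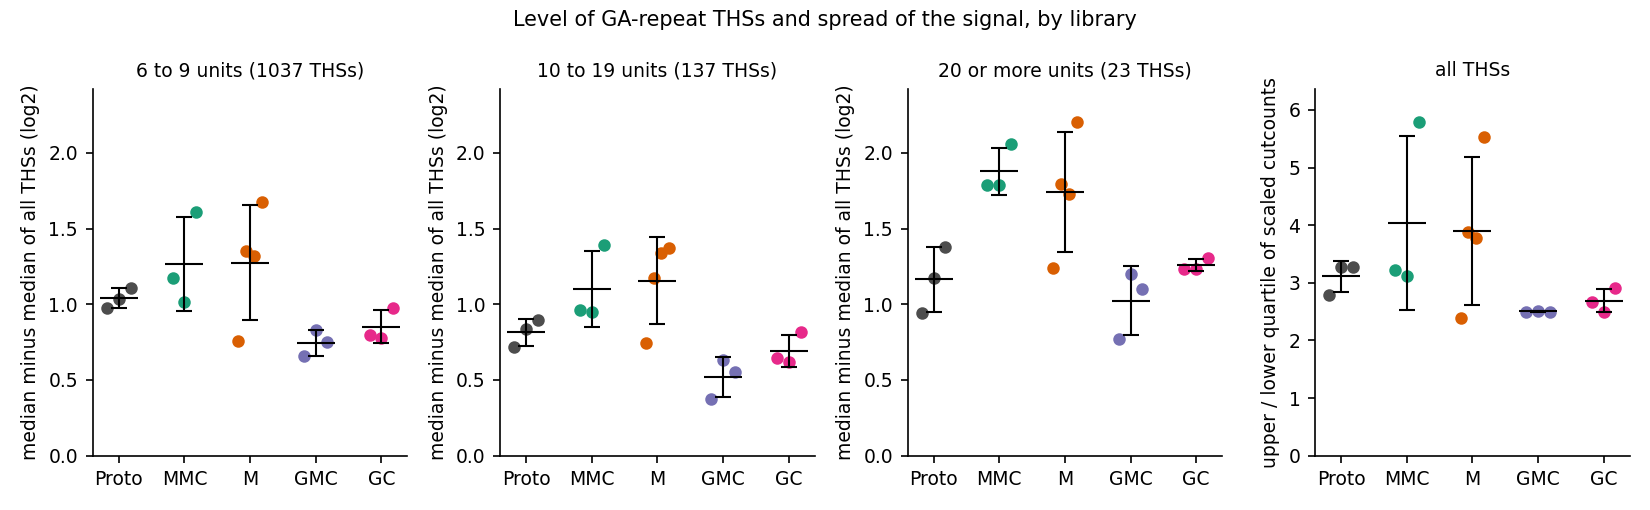
Each point is a library, and the black bars are the state mean ± SD. The first 3 panels give the median log2 level of members by run length minus that of all THSs, and the last gives the ratio of the upper to the lower quartile over all THSs, which is also highest in MMC replicate 3 and M replicate 4.

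Setting MMC and M against GMC and GC asks which sites were more open before than after commitment to guard cell fate. It was fitted with limma on log2(scaled cutcounts + 1) over all THSs, with the 5 state means in 1 model and p-values adjusted over the 65351 THSs (threshold 0.05). The change was mostly in 1 direction among the members, since MMC and M stood higher in 478 of the 1197 (39.9%) and lower in 25 (2.09%), while 694 were not called. Over all THSs 16.6% were higher and 16.7% lower. The members' median log2 fold change was 0.39, against -0.02 for all, and 85.3% of the members had a value above 0, against 49.0%. With 10 to 19 units there were 66 higher and 1 lower, and with 20 or more units 14 higher and none lower of 23, which allows a share of up to 14.3% (Wilson), while all 23 values lay above 0.

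The balance shifted with the length of the run, also below the 6 units that defined the members. The median log2 fold change was -0.09 in THSs with 0 to 2 units, 0.14 with 3, 0.25 with 4, 0.34 with 5, 0.38 with 6 to 9, 0.41 with 10 to 19 and 0.61 with 20 or more. The share called higher went from 13.5% to 22.6%, 29.2%, 35.9%, 38.4%, 48.2% and 60.9% over the same groups, and the share called lower from 18.6% to 13.5%, 8.28%, 4.16%, 2.31%, 0.73% and 0%. Over these groups the median level rose from 48.3 to 149 scaled cutcounts, with 96.3 at 10 to 19 units, and the median length from 210 to 420 bp. With cyclic loess, a scaling that evens out the spread of signal between libraries, the shift was smaller, with medians of 0.01, 0.01, 0.06, 0.11, 0.13, 0.21 and 0.14, and 7.04%, 6.72%, 9.63%, 11.2%, 11.6%, 16.8% and 30.4% called higher. The 937 THSs with 5 units lay just outside the rule, and the 462 with 6 units just inside it had a median of 0.35, with 35.3% called higher and 2.60% lower. Other dinucleotide repeats stood between, with a median of 0.20 and 25% called higher in 520 THSs with at least 6 TA units, and 0.14 and 27.9% in 269 THSs with at least 6 CA units.

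**Figure D3:**
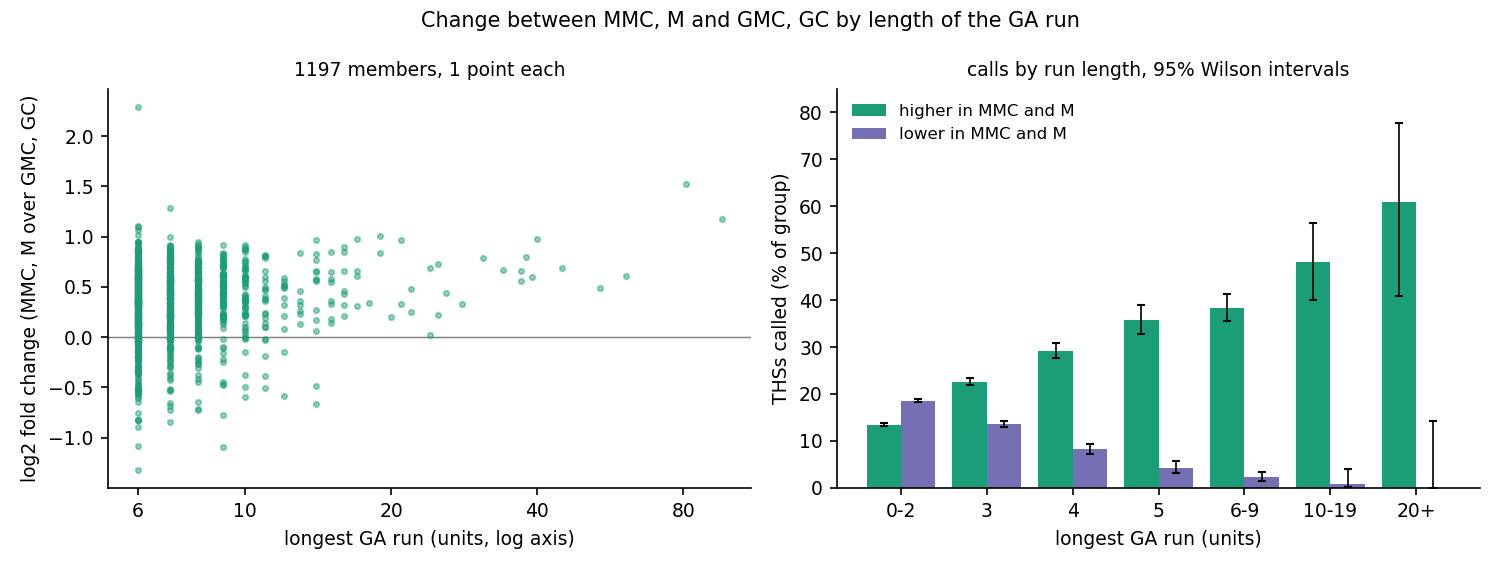
Left, the log2 fold change of each member between MMC and M and GMC and GC against its longest run, on a log axis. Right, the percent of THSs called higher or lower in MMC and M by longest run, with 95% Wilson intervals, where the higher share grows from 13.5% to 60.9%.

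Level and length moved with this comparison in all THSs, and the members were high in both. In the top quintile of mean level 59.8% of 570 members were called higher, against 48.9% of the other THSs, and in the lowest quintile 5.17% of 58 members, against 0.55%. In the top quintile of length the shares were 52.3% of 501 members and 35.0% of the others. Averaged over the quintiles, with the members' own distribution, the excess of the members over other THSs was 15.1 percentage points within quintiles of length and 9.66 within quintiles of level, down from 23.8 without grouping. Among THSs that held a gene start the shares were 44.5% of members and 34.5% of the others, and among those up to 2000 bp downstream they were 27.3% and 7.91%. With cyclic loess the shares among THSs that held a gene start were 13.3% and 13.2%, so no excess was left there, and the medians were 0.16 and 0.15. An excess stayed up to 2000 bp downstream, at 12.8% of members and 4.21% of the others, and over 2000 bp away, at 12.7% and 4.57%. Beyond 400 bp upstream, up to 2000 bp, the shares were 7.87% and 5.30%. Up to 400 bp upstream the members were lower, at 3.23% of 31 against 9.38%.

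**Figure D4:**
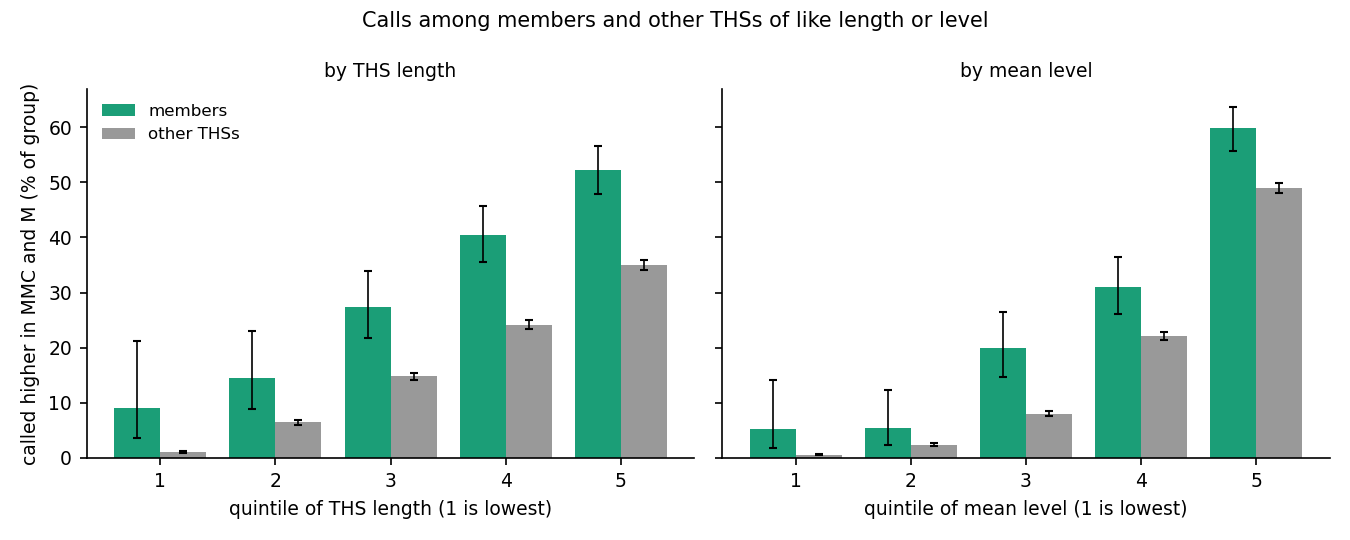
Percent of THSs called higher in MMC and M among members and other THSs within quintiles of THS length (left) and of mean level (right), with 95% Wilson intervals. The members' bar is the higher one in each of the 10 quintiles shown, and both bars grow with length and level.

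The size of the call depended on how libraries were made comparable. Cyclic loess left 150 members higher (12.5%, against 7.25% of all THSs) and 32 lower, so that 82.4% of the calls were higher in place of 95%, and the members' median was 0.13 against 0.01 for all. With the quartile ratio of each library as a covariate, chosen after seeing the data, 2 members were called, both higher, and their median was 0.08 against 0.00, with 5 THSs called higher and 1 lower in all. Leaving out MMC replicate 3 left 240 members higher (20.1%, against 7.27% of all THSs) and GMC replicate 1 263 (22.0% against 8.41%). Without GC replicate 1 or GC replicate 2 there were 299 (25%, against 9.87% and 9.61%), and 8 to 15 were lower in these 4 fits.

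The libraries of the groups were completely apart in few members. All 7 MMC and M libraries lay above all 6 GMC and GC libraries in 38 members (3.17%, against 0.978% of all THSs), and below them in 4 (0.334%, against 2.04%). The members called higher had a median log2 fold change of 0.64, and those called lower a median of -0.72. Gene starts lay inside 77.0% of the members called higher, but inside only 4 of the 25 called lower.

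The 3 longest runs differed between Proto and MMC. Of the 5 THSs in the whole table that differed between Proto and MMC (0.00765%), 4 were members, and all were higher in MMC. They were the 3 members with the longest runs, THS_23375, THS_19073 and THS_41525, and THS_61260 at SPCH. The reads of the study were shorter than each of these 3 runs, so a read from inside a run can match all 3. Whether the 3 calls stand for separate sites was not tested. At an unadjusted p under 0.05 there were 103 members (8.60%, against 7.37% of all THSs). The other THS of the 5, THS_61261, neighbours THS_61260 and had no run above 2 units.

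In THS_23375 (chr2:13095002-13095421) the run spanned the start of AT2G30740, with its centre between genes, 28 bp upstream. This THS was a bait in the yeast one-hybrid screen of the study. The study took its baits from sites ranked high in its early-lineage cluster, which is open in MMC and M in these same data. A rise of a bait in MMC and M was therefore part of its choice and is not a separate result. Its scaled cutcounts were 67.2, 62.1 and 85.9 for Proto, then 226, 205 and 212 for MMC, 140.2, 195, 172 and 251 for M, 77.6, 94.4 and 80.5 for GMC, and finally 89.9, 92.4 and 92 for GC. Every MMC and M library lay above every library of the other 3 states. The log2 fold change from Proto to MMC was 1.58 (SE 0.23), with a limma adjusted p of 0.00279, and that of MMC and M against GMC and GC 1.18 (SE 0.16), adjusted p = 4.54e-04. Without Proto replicate 1 the first change was 1.54 with an adjusted p of 0.0573, without Proto replicate 2 it was 1.48 with 0.100, and with the share of signal in the strongest 10% of THSs as a covariate 1.47 with 0.0967, so the call was lost with the fold nearly as large.

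THS_19073 (chr2:6002287-6002449) lay 16190 bp from the nearest gene start, that of AGL44, a MADS-box gene. The libraries gave scaled cutcounts of 7.13, 5.36 and 17.6 for Proto, then 79, 83.6 and 71.6 for MMC, 38.4, 47, 32.7 and 55.8 for M, 14.8, 11.5 and 21.4 for GMC, and finally 24.4, 33.9 and 17.6 for GC. The MMC libraries stood above all 13 others, and M fell between MMC and the rest, with an overlap between M replicate 3 and GC replicate 2. From Proto to MMC the log2 fold change was 3.00 (SE 0.37), limma adjusted p = 1.37e-04, and the call held in all 30 alternatives that tested it. Against GMC and GC it was 1.52 (SE 0.25), adjusted p = 0.00396.

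THS_41525 (chr4:5360886-5361101) lay 3666 bp upstream of the start of AT4G05485, between genes. Its scaled cutcounts were 41.8, 51.3 and 74.2 for Proto, then 155, 275 and 212 for MMC, 107, 221, 161 and 220.3 for M, 97.2, 172 and 128 for GMC, and finally 144, 133 and 82.8 for GC. Proto was the state that stood apart here, below all other libraries, while MMC and M overlapped GMC and GC. The log2 fold change from Proto to MMC was 1.92 (SE 0.30), limma adjusted p = 0.0073, but the call was lost without Proto replicate 1 (1.74, adjusted p = 0.294), without Proto replicate 2 (1.88, 0.132), without trend and robust fitting (1.92, 0.152) and with the signal share as a covariate (1.46, 0.417). The change of MMC and M against GMC and GC was 0.61 (SE 0.21), adjusted p = 0.0262, and this call was lost in 10 of 31 alternatives, among them cyclic loess (0.29, adjusted p = 0.246), the signal share (0.23, 0.453) and leaving out M replicate 2, M replicate 4, GMC replicate 1 or GC replicate 3 (0.49 to 0.55).

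The other 2 of the 5 longest runs were not called between Proto and MMC. THS_27674 (chr2:19100182-19100731, 45 units) had 138 to 247 scaled cutcounts in MMC and M and 92.3 to 132 in GMC and GC, without overlap, with a log2 fold change of 0.69 (SE 0.17) and a limma adjusted p of 0.00739. With cyclic loess this change was 0.34 and the adjusted p 0.052. Its MMC libraries, at 182, 165 and 201, also lay above its Proto libraries, at 93.7, 118 and 137, with a change of 0.66 (SE 0.24) and an unadjusted p of 0.0113 in limma. THS_19969 (chr2:8021117-8022274, 54 units) had 194 to 551 and 219 to 328, which overlapped, and its change of 0.49 (SE 0.20) was not called, adjusted p = 0.057, but it was called without MMC replicate 2, M replicate 1 or M replicate 3 (0.53 to 0.63).

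**Figure D5:**
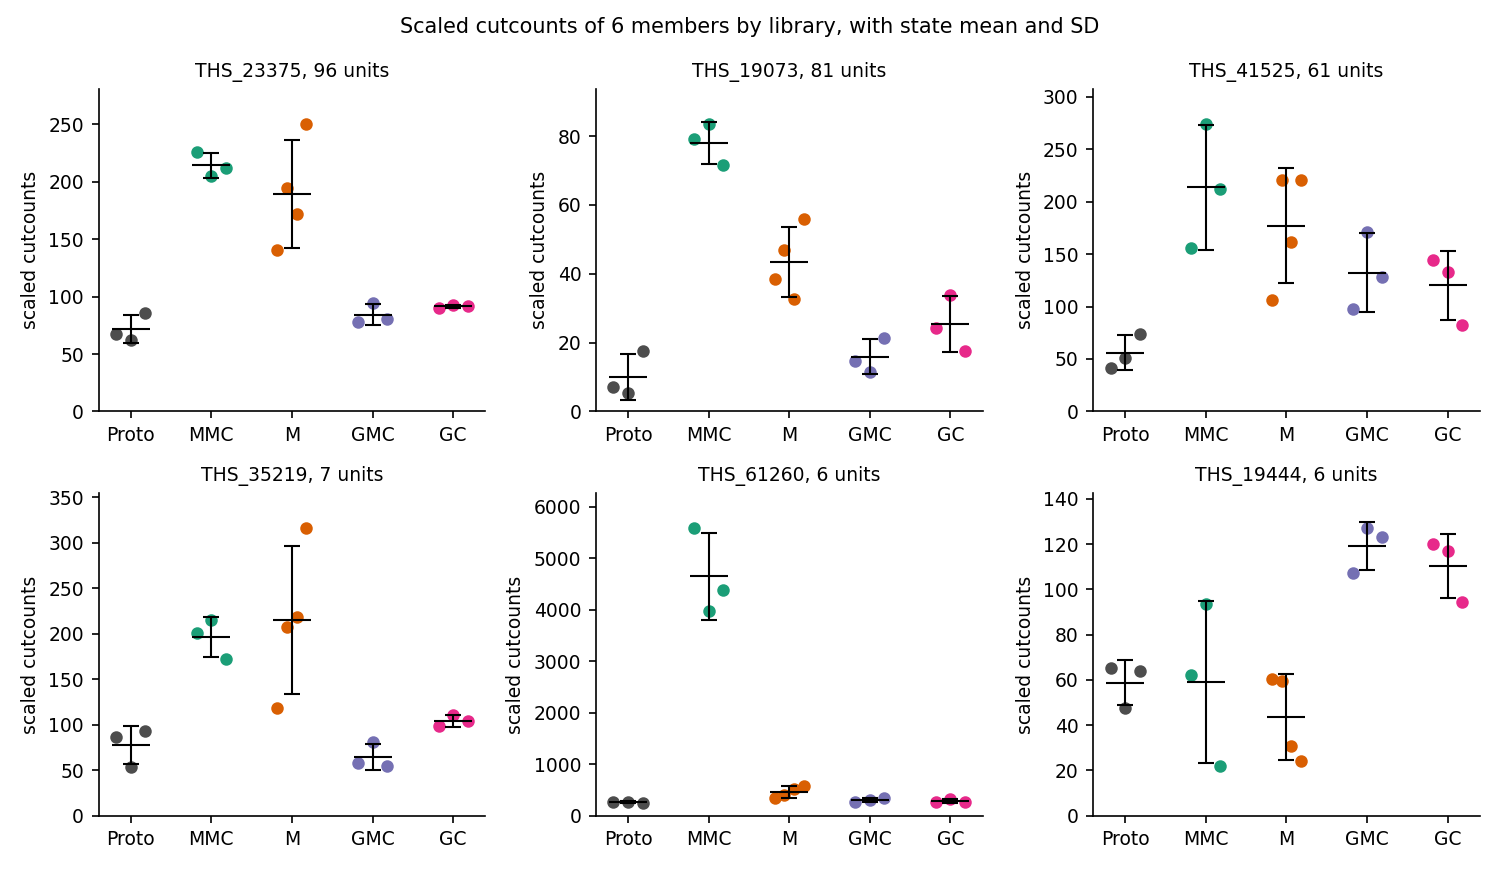
Scaled cutcounts of 6 members in the 16 libraries, 1 point each, with the state mean ± SD as black bars and a linear axis from 0 in each panel. THS_23375, THS_19073 and THS_41525 hold the longest runs, and in them MMC lies above Proto without overlap, while THS_19444 is higher in GMC and GC.

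A test of the 5 state means in 1 step called 18 THSs (0.0275%), of which 5 were members, THS_19073, THS_23375, THS_35219, THS_41525 and THS_61260. At an unadjusted p under 0.05 it found 403 members (33.7%, against 24.9% of all). THS_35219 (chr3:10938170-10938440) had a run of only 7 units, in the wider TC-rich stretch shown above, and lay 3528 bp downstream of the start of HB34, a zinc finger homeodomain gene. The libraries gave scaled cutcounts of 86.6, 53.6 and 93.1 for Proto, then 201, 215 and 173 for MMC, 118, 208, 219 and 316 for M, 57.9, 80.4 and 55 for GMC, and finally 98.4, 111 and 104 for GC. All MMC and M libraries lay above all others, and the change against GMC and GC was 1.28 (SE 0.19) on the log2 scale, limma adjusted p = 0.00239. Its change from Proto to MMC was 1.36 (SE 0.28), adjusted p = 0.22, and was not called.

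THS_61260 (chr5:21588947-21590658) spans the promoter and start of SPCH, the bHLH gene that starts the stomatal lineage, with a run of 6 units in the 5′ UTR, and it too was a bait in the one-hybrid screen. Its scaled cutcounts were 269, 271 and 245 for Proto, then 5588, 3968 and 4376 for MMC, 339, 405, 515 and 582 for M, 272, 310.3 and 334 for GMC, and finally 259.5, 331 and 265 for GC. The log2 fold change was 4.13 (SE 0.26) from Proto to MMC and -3.35 (SE 0.25) from MMC to M, with limma adjusted p of 9.25e-11 and 1.77e-09. The MMC line carries the SPCH promoter on its tag, reads of that copy map to the same place, and the endogenous site and the copy cannot be told apart. Outside MMC all M libraries still lay above all GMC and GC libraries, at 339 to 582 against 259.5 to 334.

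From M to GMC the members moved down. Of the 1197 members 192 were lower in GMC (16%, against 5.87% of all THSs) and 4 were higher (0.334%, against 4.79%), with a median log2 fold change of -0.47 against 0.02 for all. These calls share the M and GMC libraries with the comparison above. Without M replicate 1 the members called in either direction went from 196 to 660, and without any one of the other M or GMC libraries to 0 or 1. With limma without trend and robust fitting none was called.

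The remaining steps gave almost no calls. From MMC to M 3 THSs were called (0.00459%), of which 1 member, THS_61260, was lower in M, and 16 members had an unadjusted p under 0.05 (1.34%, against 2.58% of all). From GMC to GC 5 THSs were called (0.00765%) and no member by limma (0%), with 24 members at an unadjusted p under 0.05 (2.01%, against 1.89%). With only the GMC and GC libraries in the limma fit 1 member was called. The members' median log2 fold changes were -0.01 and 0.12 in these steps, and 0.22 from Proto to MMC.

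Besides THS_61260, THS_35219 and THS_23375, the members with the largest rise and no overlap of libraries were 7 with short to middling runs. THS_23155 lay at the start of TBL45, a member of the TRICHOME BIREFRINGENCE-LIKE family of cell wall acetyltransferases, with 6 units. It had 78.7 to 152 scaled cutcounts in MMC and M and 20.9 to 70.2 in GMC and GC, a log2 fold change of 1.11 (SE 0.21). THS_09712 lay at the start of NTMC2T5.1 with 131 to 369 against 81.9 to 128 and a change of 1.09 (SE 0.20). THS_19967, 2793 bp from a gene start, had 51.8 to 87.1 against 22.2 to 49.1 and 1.07 (SE 0.19). In these 3 the highest GMC or GC library lay close below the lowest MMC or M library.

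The other 4 of them were at receptor kinase, metabolic and kinase genes and an unnamed one. THS_09324 lay just downstream of the start of RKL1, a receptor-like kinase, with 10 units in the 5′ UTR and a log2 fold change of 0.92. THS_10407 lay at mMDH1, the mitochondrial malate dehydrogenase, with 16 units and a change of 0.90. THS_02862 at the kinase gene PEPKR1 and THS_46136 at AT4G25620 had changes of 0.89 and 0.88. The limma adjusted p of the 7 lay between 0.00396 and 0.00507, and all 7 lost the call with the quartile ratio as a covariate.

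Only 4 members were lower in MMC and M with no overlap of libraries, and none held its run in a 5′ UTR. THS_19444 (chr2:7114317-7114661), 5400 bp upstream of the nearest start, had 62, 93.5 and 21.8 scaled cutcounts in MMC and 60.5, 59.5, 30.7 and 24.3 in M, against 107, 127 and 123 in GMC and 119.9, 117 and 94.3 in GC. Its highest MMC library reached 93.5 and its lowest GC library was at 94.3, with a log2 fold change of -1.32 (SE 0.27) and a limma adjusted p of 0.0051. THS_60685 (chr5:20658064-20658219), 140 bp upstream of SWEET10, a sugar transporter gene, had 10.9 to 37.4 in MMC and M against 47.6 to 64 and a change of -1.09 (SE 0.23). THS_26312 in the 3′ UTR of WIH2 and THS_61779 in an intron of GPT1, a plastid glucose 6-phosphate transporter gene, changed by -0.82 and -0.64. The call of THS_26312 was lost in 6 of 31 alternatives, with a value of -0.45 and a limma adjusted p of 0.108 under cyclic loess. That of THS_61779 was lost in 14, with -0.24 and 0.42 under cyclic loess, and without any one of MMC replicate 3, M replicate 4 and the GMC and GC libraries other than GMC replicate 3 (-0.57 to -0.67).

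The 5 members with the highest mean level over the 16 libraries were long THSs of 1127 to 1712 bp, of which the run took at most 1.60%. The mean was 1523 scaled cutcounts in THS_58473 at UBC18, a ubiquitin-conjugating enzyme gene, 1326 in THS_27588 near GBF3, a bZIP gene, 1272 in THS_24639 between genes and 1260.0 in THS_45610 at BTI1. THS_61260 at SPCH, with 1146, was among them through its MMC libraries alone. Per 100 bp of THS the 5 had 66.9 to 135 scaled cutcounts. THS_58473 ranged over 849 to 2378 in MMC and M and 919.6 to 1607 in GMC and GC and was not called, adjusted p by limma = 0.052. THS_27588, THS_24639 and THS_45610 were called higher, with log2 fold changes of 0.71, 0.81 and 0.77, but with cyclic loess these were -0.04, 0.06 and 0.02, and none was called. THS_27588 also lost its call without MMC replicate 3, GMC replicate 1, GC replicate 1 or GC replicate 2 (0.59 to 0.71), and THS_58473 gained one without MMC replicate 1, M replicate 1 or GC replicate 3 (0.68 to 0.75).

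Genes known for roles in stomata, in the BPC family, in PRC2 or as BPC targets were looked up in 7 lists. Of their 52 genes, 45 were the nearest gene of at least 1 of 127 THSs, and 9 of these THSs (7.09%, against 1.83% of all), at 8 genes, were members. By limma 4 of the 9 were higher in MMC and M (44.4%, against 39.9% of all members) and 1 was lower. Among the 4 was THS_61260 at SPCH, where the site and the promoter copy on the tag cannot be told apart in MMC. Of all 127 THSs 35 were higher (27.6%) and 21 lower (16.5%), with a median log2 fold change of 0.10. No THS of TMM, ERL1, ERL2, MUTE, ER or EPF2 was a member, the longest run being 3 units at TMM, 2 at ERL1, 5 at ERL2, 4 at MUTE, 5 at ER and 4 at EPF2.

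Among the stomatal fate bHLH genes, 2 of 8 THSs were members. Besides SPCH this was ICE1, also called SCRM, the partner of SPCH, MUTE and FAMA. THS_34596 held its start and 7 units in the 5′ UTR, with scaled cutcounts of 192, 148 and 165 for Proto, then 144, 129 and 167 for MMC, 140.2, 185, 353 and 285 for M, 116, 138 and 156 for GMC, and finally 143, 144 and 139.6 for GC. M replicates 3 and 4 were above all other libraries, the groups overlapped, and the change of 0.38 (SE 0.19) was not called, limma adjusted p = 0.103, although without M replicate 1 it was (0.50, adjusted p = 0.0103).

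Among 40 THSs of 15 stomatal patterning genes only 1 was a member, THS_12673 at YDA, the MAP kinase kinase kinase that restricts stomatal fate. The libraries gave scaled cutcounts of 55, 57.5 and 37.1 for Proto, then 69.2, 53.1 and 84 for MMC, 62.4, 42.3, 71.5 and 95.5 for M, 33.2, 50.9 and 39.7 for GMC, and finally 41.2, 45.6 and 31.4 for GC. M replicate 2 lay within the GMC and GC range and the other 6 MMC and M libraries above it, with a log2 fold change of 0.72 (SE 0.20), limma adjusted p = 0.0108. The epidermal identity list gave THS_01093 at HDG2, a homeodomain gene that promotes stomatal differentiation, with 61 to 146 in MMC and M, 48 to 82.9 in GMC and GC and a change of 0.58 (SE 0.18), adjusted p = 0.0196, a call lost in 8 of 31 alternatives, among them leaving out GMC replicate 1 (0.48) or GC replicate 2 (0.52).

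SCAP1, a Dof gene needed late in guard cell maturation, was the list gene with a change in the other direction. THS_64663 lay 603 bp upstream of it, with scaled cutcounts of 38.7, 55.2 and 40.3 for Proto, then 35.9, 36.4 and 24.9 for MMC, 41.3, 36.8, 47 and 34.8 for M, 61.5, 64.9 and 57 for GMC, and finally 50.6, 38.6 and 51.4 for GC. GC replicate 2 lay among the MMC and M libraries, and the log2 fold change was -0.57 (SE 0.18), limma adjusted p = 0.0194. The call was lost in 7 of 31 alternatives, among them cyclic loess (-0.35, adjusted p = 0.144), quantile normalization (-0.38, 0.121) and leaving out MMC replicate 3 (-0.48, 0.0638).

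Of the proteins that bind or act on GA repeats, BPC4 and SWN had a run at their own start. THS_20624 at BPC4 held 7 units and was higher in MMC and M, at 96 to 277 against 90.3 to 167 scaled cutcounts, by 0.63 (SE 0.21) on the log2 scale, limma adjusted p = 0.0263. MMC replicates 1 and 2 and M replicates 1 and 2 lay within the GMC and GC range. The call was lost in 13 of 31 alternatives, with a value of 0.26 under cyclic loess, -0.03 with the quartile ratio as a covariate, and 0.48 to 0.63 without any one of MMC replicate 3, M replicates 3 and 4, GMC replicates 1 and 2 and GC replicates 1 and 2. THS_41063 at SWN, a PRC2 methyltransferase gene, had 104 to 205 against 89.9 to 143 and was not called, with a change of 0.24 (SE 0.17). KNAT1, a homeobox gene regulated by BPC proteins, had 2 members in its 5′ UTR with changes of 0.22 (SE 0.17) and 0.41 (SE 0.17), neither called, but the second, THS_41470, was called without MMC replicate 1, M replicate 1 or M replicate 3 (0.44 to 0.50).

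The third bait with a long run, THS_06487 (chr1:9708151-9708348), lay 612 bp upstream of AT1G27880 with 7 units in a GA-rich stretch. It is a bait by a figure legend of the study, while the methods of the study give another THS number in its place. Like the other baits it was described there as an early-lineage site. Its scaled cutcounts were 29.5, 27.6 and 29.3 for Proto, then 45.8, 92.5 and 66.9 for MMC, 67.2, 68.1, 75.6 and 86.7 for M, 25.9, 47.6 and 40.7 for GMC, and finally 54.3, 60.8 and 36 for GC. Every Proto library lay below every MMC and M library, but the change from Proto to MMC of 1.16 (SE 0.28) was not called, limma adjusted p = 0.675. Against GMC and GC it was 0.70 (SE 0.19), adjusted p = 0.0117, and MMC replicate 1 lay within the GMC and GC range while the other 6 MMC and M libraries lay above it. This call was lost in 3 of 31 alternatives. They were equal upper quartiles (0.50, limma adjusted p = 0.0608), the signal share (0.58, 0.0961) and the quartile ratio as a covariate (0.65, 0.755).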

How the data were processed

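The members, lists and tests were chosen with earlier results of these data known. According to the authors, reads were mapped to TAIR10 with bowtie2, centromeric reads were removed, peaks were called with MACS2 and merged with published open regions, and cut positions were counted on each THS and scaled by DESeq2 size factors. These deposited signal values are the scaled cutcounts used here. A further value column, 1 in all, matched no library and was not used. The signal values of each library were whole multiples of a single step in 99.99 to 100% of THSs (within 0.01 of a step), which gave 3412226 to 13596509 cutcounts on THSs per library. No count model was fitted.

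GA runs were searched on both strands of the NCBI TAIR10 sequence between the start and stop of each THS. Gene starts came from its annotation (33056 genes). THSs were placed by the nearest gene start. Values were put on the log2 scale with a pseudocount of 1 and fitted with limma 3.58.1 in R 4.3.3 (5 state means, trend and robust, no filter), with Benjamini-Hochberg adjustment over 65351 THSs. On simulated counts the fit recovered 56 of 100 THSs with a log2 change of 1 and 100 of 100 with a change of 2. Of its 162 calls 6 were false. The simulated libraries did not differ in their spread of signal, and all THSs shared 1 dispersion. How the fit behaves where that spread differs was therefore not tested. The p-values measure the spread between libraries, and the labels do not say what separates the replicates. Same-numbered libraries of different states deviated together no more than others by the median. Their r was 0.02 (-0.22 to 0.40, 30 pairs), against -0.03 (-0.67 to 0.63, 72 pairs). The numbers showed no common pairing, but a batch shared by some of the libraries was not tested. Wilson intervals (95%) cover counting error only. Python 3.11.15 (scipy 1.17.1, pandas 2.3.3, numpy 2.4.6) handled the tables and matplotlib 3.10.9 drew the figures.

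The 31 members named are the 5 longest runs, the 5 highest levels, up to 10 in each direction of MMC and M against GMC and GC with the largest called change and no overlap of libraries, those at genes of the 7 lists, and baits of the one-hybrid screen. Alternatives were other scalings, filters, pseudocounts, covariates, lowess corrections and repeat definitions, and leaving out each library.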

Additional observations from a re-analysis of the deposited data

Results flagged for a closer look

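In THS_23155 at TBL45 one of the 4 M libraries stood apart from the others. The values were 83.5, 88.5, 81.7 and 152 scaled cutcounts, and the gap from M replicate 4 to the next library was 0.904 of the whole range, above Dixon's 95% critical value for 4 values. It was the only one of 33 sets of M values tested that passed this limit, and chance passes about 1 in 20.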

How the results depend on the processing

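Without any one library, the members called higher in MMC and M than in GMC and GC numbered 240 to 689, those called lower 8 to 45, and the median log2 fold change of the members lay between 0.32 and 0.46. The same removals gave 4 to 495 members in the test of the 5 state means (171 without MMC replicate 2, 58 without MMC replicate 3, 495 without M replicate 1), 2 to 9 from Proto to MMC, and 0 to 660 from M to GMC. Members called higher, in place of 478, numbered 115 at an adjusted p under 0.01, 306 with equal upper quartiles, 150 with cyclic loess, 207 with quantile normalization, 77 with the share of signal in the strongest 10% of THSs as a covariate, and, among alternatives chosen after seeing the data, 2 with the quartile ratio as a covariate, 153 with a lowess correction for level and 267 with one for length. Members called lower, in place of 25, numbered 3 at 0.01, 38 with equal totals, 47 with equal upper quartiles, 6 with the signal share and 0 with the quartile ratio. The members' median was 0.19 with equal upper quartiles, 0.13 with cyclic loess, 0.16 with quantile normalization, 0.076 with the quartile ratio and 0.14 with the level correction. The median of all THSs was -0.13 with equal totals and -0.21 with equal upper quartiles, so the members stood 0.40 above it in both.

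From M to GMC, the members called in either direction, in place of 196, numbered 1 at 0.01, 127 with equal totals, 113 with equal upper quartiles, 54 with cyclic loess, 0 without trend and robust, 99 with only the states compared, 0 with the signal share, 1 with the quartile ratio, 55 with the level and 106 with the length correction. In the test of the 5 means there were, in place of 5, 88 with quantile normalization, 30 with at least 10 scaled cutcounts in every library, 12 with a pseudocount of 5, 3 without trend and robust and 1 with the signal share, which also left 2 from Proto to MMC. From GMC to GC there was 1 with only the states compared. With the replicate number as a block there were 442 members higher and 19 lower, 122 in the test of the 5 means and 10 from M to GMC, although the numbers showed no common pairing.

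With at least 5 units there were 2134 members, 814 higher (38.1%) and 64 lower (3.00%), with at least 8 units 450, 203 (45.1%) and 6 (1.33%), and with 1 mismatch allowed 2595, 931 (35.9%) and 94 (3.62%), against 16.6% and 16.7% of all THSs. The excess of members over other THSs in the share called higher was 15.1 percentage points within quintiles of length and 9.66 within quintiles of level. THS_27588 turned to -0.044 with cyclic loess and -0.037 with the level correction, and THS_20624 to -0.031 with the quartile ratio. The cause of these shifts was not tested. With 23 THSs, shares in the longest runs carry wide intervals.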
